A study of Homo sapiens with 2 samples.

Results

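GC-poor promoters with NUDT21 peaks were defined as protein-coding genes (GENCODE 44, chromosomes 1 to 22 and X) with a GC content under 45% in the 500 bp either side of the gene 5′ end and a peak of both replicates within 1 kb of that end. The gene 5′ end is the outermost annotated start of a gene. Of 19970 genes, 2585 were GC-poor, and 73 of these had a peak in both lists (2.82%, 95% Wilson interval 2.25 to 3.54). Among all protein-coding genes the share was 46.7%, and among genes of 45% GC or more it was 53.3%. The remaining GC-poor genes were 2450 without a peak in either list, 53 with a peak in replicate 1 only and 9 with a peak in replicate 2 only. The 73 genes were chosen by the measured peaks, so their having a peak is not a result, and no test was run on it.

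The base composition at the peaks went against the working name. At none of the 73 genes did the summit of the strongest peak lie in GC-poor sequence, and at 60 of them the annotated canonical transcript started more than 100 bp away from the GC-poor 5′ end. They are therefore described below as 73 genes whose outermost annotated start is GC-poor and has a NUDT21 peak nearby.

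The data were CUT&Tag peak lists of 2 replicates of J.gamma1, an established T-ALL line (leukemia of immature T cells) that derives from Jurkat and lacks phospholipase C gamma 1, with an antibody to NUDT21. No treatment or second genotype was compared, and both replicates form 1 group. The study's methods describe them as independent biological replicates, without saying how they were grown. Replicate 1 had 97162 peaks and replicate 2 had 68532, and the fragments recovered at a summit had medians of 29 and 19. No control antibody sample was analysed here.

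NUDT21 (also called CPSF5 or CFIm25) is the small subunit of cleavage factor Im, which binds UGUA in nascent RNA and takes part in the choice of the polyadenylation site. CUT&Tag maps its position on chromatin, where the antibody tethers a transposase that cuts accessible DNA close by. Most human promoters lie in CpG islands, GC-rich stretches in which the CpG dinucleotide has not been depleted. GC-poor promoters more often belong to genes that are used in few cell types. A gene can have several promoters, and the outermost annotated start need not be the one in use.

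How the share of genes with a peak moved with GC content is given first. Under 35% GC, 1 of 394 genes had a peak in both replicates (0.254%, Wilson interval 0.0448 to 1.42). Between 35 and 40% GC, 12 of 858 genes did (1.40%), and between 40 and 45%, 60 of 1333 genes did (4.50%, 3.51 to 5.75). The next step, 45 to 50%, held 310 of 1722 genes (18.0%). The share was highest between 60 and 65% GC, at 63.2%. Replicate 1 alone gave 7.65% and replicate 2 alone 5.18% in the 40 to 45% step. All these intervals cover counting error only, since neighbouring genes share peaks and sequence.

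**Figure D1:**
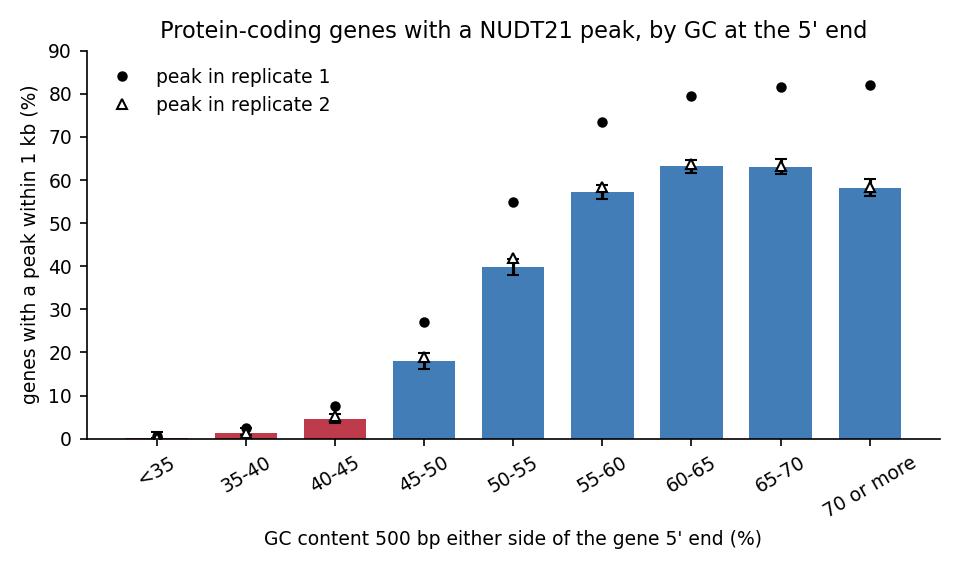
Share of protein-coding genes with a peak within 1 kb of the gene 5′ end (vertical axis, %) against GC content in the 500 bp either side of that end (horizontal axis, %). Bars are genes with a peak in both replicates with 95% Wilson intervals, circles replicate 1 and triangles replicate 2. The 3 red bars hold the GC-poor genes and rise from 0.254% to 4.50%, while the blue bars start at 18.0%.

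The sequences just before the 5′ end are printed for some of the GC-poor genes. They are given for strong and GC-poorest genes with a peak and for genes without a peak, 120 bases each from hg38, 5′ to 3′ on the strand of the gene, with every CpG in capitals. KDM3A, a histone H3 lysine 9 demethylase, had 28.3% GC and 1 CpG in chr2:86440527-86440646. DDX5, an RNA helicase, had the same values in chr17:64508200-64508319. HJV, the iron regulator hemojuvelin, had 34.2% GC and 2 CpG in chr1:146036747-146036866. ST7L had 39.2% GC and 1 CpG in chr1:112620826-112620945. The unnamed gene model ENSG00000286224 had 50.8% GC in chr21:46326168-46326287. The DDX5 and ST7L stretches lay within an intron of an annotated gene, that of ENSG00000286224 overlapped an exon of a transcript annotated without coding sequence, and those of KDM3A and HJV were intergenic.
KDM3A: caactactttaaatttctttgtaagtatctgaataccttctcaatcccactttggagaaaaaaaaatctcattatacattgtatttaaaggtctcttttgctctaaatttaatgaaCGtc
DDX5: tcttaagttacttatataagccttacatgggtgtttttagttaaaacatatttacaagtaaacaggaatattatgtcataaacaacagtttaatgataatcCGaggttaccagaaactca
HJV: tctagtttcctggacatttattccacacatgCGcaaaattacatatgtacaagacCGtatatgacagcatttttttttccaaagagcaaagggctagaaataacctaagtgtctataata
ST7L: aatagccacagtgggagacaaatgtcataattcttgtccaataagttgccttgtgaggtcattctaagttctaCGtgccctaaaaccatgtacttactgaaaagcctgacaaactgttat
ENSG00000286224: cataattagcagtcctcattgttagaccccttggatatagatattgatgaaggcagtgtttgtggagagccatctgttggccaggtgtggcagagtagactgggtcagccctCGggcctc

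Among GC-poor genes without a peak whose canonical transcript starts within 100 bp of the 5′ end, those with the highest CpG ratio were PCDHA3, SMIM30, PCDHA6 and PCDHA8. The CpG ratio is the number of CpG divided by the number that the C and G content would give. It was 0.843 at PCDHA3, 0.818 at SMIM30, 0.813 at PCDHA6 and 0.804 at PCDHA8. The PCDHA genes encode alpha protocadherins, adhesion proteins of neurons. The nearest peak lay 100021 bp (replicate 1) and 129328 bp (replicate 2) from PCDHA3. The stretch of PCDHA3 (chr5:140800908-140801027) had 34.2% GC and 4 CpG, and that of SMIM30 (chr7:113118561-113118680) had 63.3% GC and 12 CpG. Both overlapped exons of transcripts annotated without coding sequence.
PCDHA3: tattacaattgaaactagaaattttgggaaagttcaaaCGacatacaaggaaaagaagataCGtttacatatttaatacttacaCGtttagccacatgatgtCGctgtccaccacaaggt
SMIM30: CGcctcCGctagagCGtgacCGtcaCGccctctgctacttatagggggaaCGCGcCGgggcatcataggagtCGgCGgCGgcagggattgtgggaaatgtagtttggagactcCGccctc
SMIM30 therefore had more CpG before its 5′ end than any of the 5 genes with a peak printed above, and it had no peak within 1 kb.

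Where the peaks lay relative to the 5′ end was examined next. The strongest peak within 1 kb (the one of highest fold enrichment over the local background) had its summit a median of 829 bp downstream of the 5′ end in replicate 1 and 824 bp in replicate 2. Summits were downstream in both replicates at 55 of 73 genes and upstream in both at 16. They lay on opposite sides at ZNF131 and S100A13, the 2 genes at which the strongest peaks of the replicates did not overlap. The summit was within 500 bp of the 5′ end in both replicates at 1 gene (1.37%, 0.242 to 7.36). At genes of 45% GC or more with peaks, the median offset was 54 bp and 66 bp, and 60.4% had both summits within 500 bp. The rule required under 45% GC over those 500 bp, whereas 99.8% and 99.6% of all summits had 45% or more around them. Few summits near the 5′ end were thus largely set by the choice of genes, and this contrast is no separate result.

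Few peaks lay on the 5′ end itself. The strongest peak covered it at 0 of 73 genes in replicate 1, which allows a share of up to 4.11%, and at 2 genes in replicate 2. For genes of 45% GC or more these shares were 85.5% and 67.2%. The same choice by GC content lies behind this contrast, so it is no separate result either. H4C3, an intronless gene for the replication-dependent histone H4, was the only one at which any peak covered the 5′ end in both replicates. Its covering peak had a fold of 4.77 with 30 fragments at the summit in replicate 1 and 5.81 with 21 fragments in replicate 2, with summits 124 bp and 180 bp downstream. The sequence 100 bp either side of these summits had 55.2% and 52.2% GC, although the 5′ end of H4C3 had 43.96%. NEU3, a sialidase gene, had its 5′ end covered in replicate 2 only.

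At most of these genes the canonical transcript, which the annotation ranks as representative, started downstream of the 5′ end. Its start lay 500 to 2000 bp downstream of the 5′ end at 44 of 73 genes (60.3%, 48.8 to 70.7), against 5.18% of GC-poor genes without a peak and 8.93% of genes of 45% GC or more with peaks. It lay within 100 bp of the 5′ end at 13 genes (17.8%, 10.7 to 28.1), against 61.6% of GC-poor genes without a peak (59.7 to 63.5), and more than 2000 bp away at 16. At the 44 genes the median distance from summit to canonical start was 183 bp in replicate 1 and 217 bp in replicate 2, and at 32 of them both summits were within 300 bp. The choice of genes by GC content and peaks largely placed the peaks off the 5′ end, as described above. A canonical start away from the 5′ end can follow in part from that choice, so this contrast is no separate result. It also depends on the width of the GC window. With GC measured over 1000 bp either side, 78 genes were GC-poor with peaks, only 17 of them among the 73, and 74.4% of them had the canonical start within 100 bp against 64.2% of those without a peak.

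**Figure D2:**
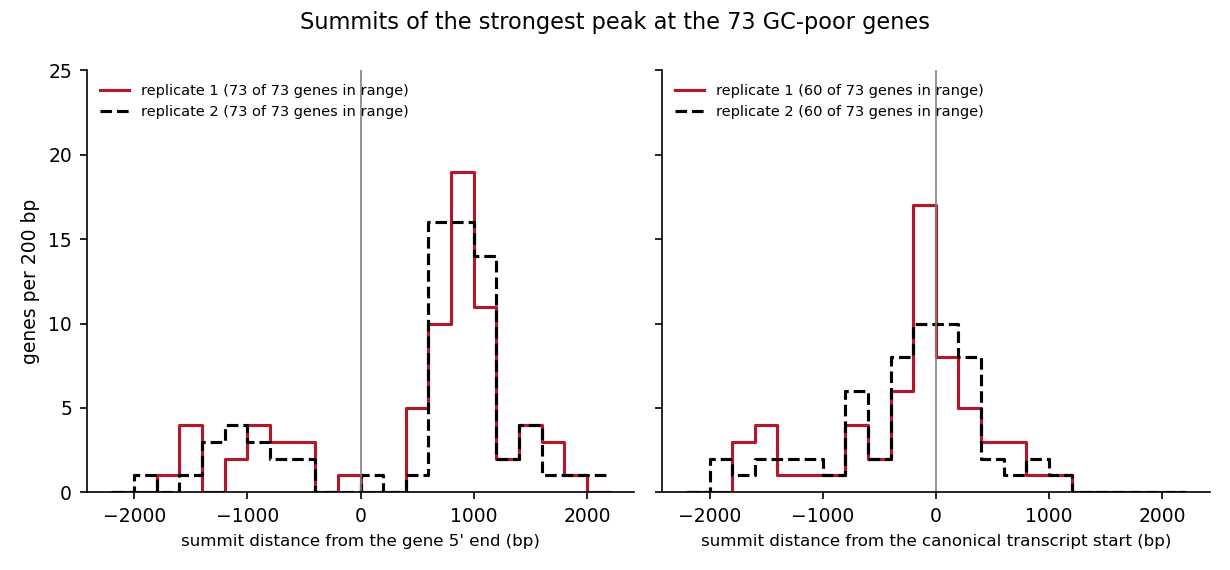
Number of the 73 genes per 200 bp (vertical axis) by the distance of the summit of the strongest peak from the gene 5′ end (left) and from the canonical transcript start (right), in bp along the gene. The solid line is replicate 1 and the dashed line replicate 2. Few summits lie at the 5′ end, with medians of 829 and 824 bp downstream, while the right panel, with the 60 genes whose canonical start was in range, has its highest bins beside 0.

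GC content rose where the summits lay. Averaged over the 73 genes, GC per 100 bp was 39.5% between 300 and 200 bp upstream of the 5′ end, 43.9% in the 100 bp that follow it, and 60.6% between 800 and 900 bp downstream. The CpG count per 100 bp in the same steps was 1.32, 1.959 and 7.10. GC-poor genes without a peak had 37.1%, 43.8% and 39.3% GC in these steps, and the last one is where the groups stood farthest apart. That step also held the median summits (829 and 824 bp) of the peaks by which the 73 genes were chosen. The rise in GC and CpG there was thus largely set by the choice of genes and is no separate result. At genes of 45% GC or more with peaks, GC was 66.3% in the first 100 bp and 54.8% between 800 and 900 bp.

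**Figure D3:**
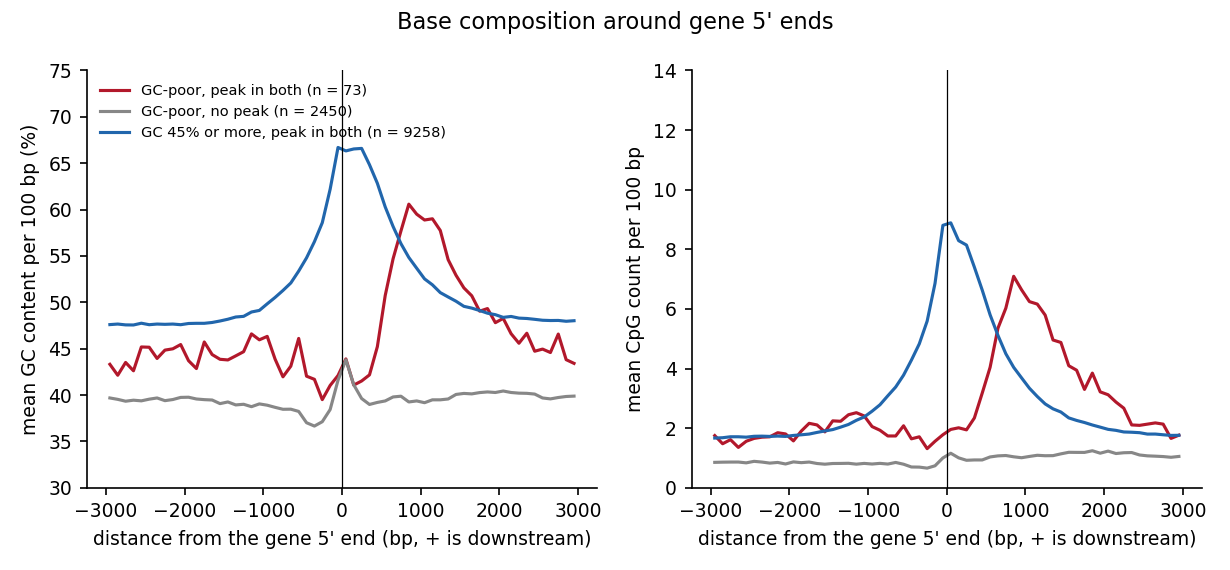
Mean GC content (left, %) and mean CpG count (right) per 100 bp against the distance from the gene 5′ end in bp, positive values being downstream. Red is the 73 GC-poor genes with peaks, grey the 2450 GC-poor genes without a peak and blue the 9258 genes of 45% GC or more with peaks. In the first 100 bp the red and grey curves stand at 43.9% and 43.8% GC and at 1.959 and 1.16 CpG. The red one reaches 60.6% GC and 7.10 CpG between 800 and 900 bp downstream. The median summits of the peaks that chose these genes lie in that step.

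The summits themselves lay in sequence of 45% GC or more at every one of the 73 genes. GC content 100 bp either side of the summit had a median of 63.2% in replicate 1 and 63.7% in replicate 2, and the lowest single value was 45.8%, at MILR1 in replicate 2. It was 45% or more at 73 of 73 genes in each replicate. This was no property of these genes alone. Of all peaks on chromosomes 1 to 22 and X, 99.8% in replicate 1 and 99.6% in replicate 2 had a summit window of 45% GC or more, and the shares were 99.8% and 99.7% for peaks over 10 kb from any annotated start. Windows of the same 201 bp placed every 10 kb along the genome reached 45% in 30.9% of cases. A summit window of 55% GC or more was less general, at 63 of the 73 genes in replicate 1 and 62 in replicate 2. These shares were 86.3% and 84.9%, against 97.3% and 93.8% of genes of 45% GC or more with peaks. Whether base composition affected the recovery of fragments or the peak calls was not tested.

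Sequence inside the peaks is printed for 4 genes to set beside the 5′ ends above, with CpG again in capitals. Each stretch of 120 bases lay in the peaks of both replicates and was the 1 nearest to the replicate 1 summit without annotated UTR, a choice made after the values were seen. KDM3A (chr2:86441042-86441161, intron) had 45.8% GC and 6 CpG at the summit, 455 bp downstream of the 5′ end. ST7L (chr1:112619845-112619964, overlapping a coding exon, 15 bp from the summit) had 64.2% GC and 9 CpG. HJV (chr1:146037754-146037873, intergenic) had 67.5% GC and 12 CpG, 1068 bp upstream. ENSG00000286224 (chr21:46324486-46324605, intron) had 86.7% GC and 22 CpG, 1742 bp upstream.
KDM3A: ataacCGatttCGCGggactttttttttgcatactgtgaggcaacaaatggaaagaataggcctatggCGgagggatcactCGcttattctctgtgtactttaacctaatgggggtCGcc
ST7L: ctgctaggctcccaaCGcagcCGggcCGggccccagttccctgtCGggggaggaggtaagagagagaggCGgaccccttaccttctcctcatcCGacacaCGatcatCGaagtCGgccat
HJV: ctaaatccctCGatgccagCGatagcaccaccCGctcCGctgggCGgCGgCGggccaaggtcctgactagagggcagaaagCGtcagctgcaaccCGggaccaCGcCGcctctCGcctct
ENSG00000286224: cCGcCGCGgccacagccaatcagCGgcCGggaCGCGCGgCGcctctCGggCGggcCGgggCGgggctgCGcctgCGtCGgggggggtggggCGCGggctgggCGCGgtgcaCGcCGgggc
All 4 held more CpG than the stretch before the 5′ end of the same gene.

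A GC-rich stretch within reach was therefore measured at all GC-poor genes. The GC-richest 201 bp within 2 kb of the 5′ end had a median GC of 72.1% at the 73 genes and 55.2% at GC-poor genes without a peak. It reached 60% at 65 of 73 genes (89.0%, 79.8 to 94.3) and at 392 of 2450 (16.0%, 14.6 to 17.5). Of the 1159 GC-poor genes with no such stretch of 55% or more, 0 had a peak in both replicates, which allows a share of up to 0.259%. Nearly all summits in either list lay in sequence of 45% GC or more, and the 73 genes were chosen by peaks. A GC-rich stretch near them, and the 0 of 1159, were therefore largely set in advance and are no separate result. Even with a stretch of 65% or more nearby, 57 of 306 GC-poor genes had peaks (18.6%, 14.7 to 23.4). Genes whose own 5′ end had 45% GC or more had peaks in 54.7% of cases when the GC-richest stretch had 65 to 70% GC, against 17.1% of GC-poor genes (10.3 to 27.1). The peak had to lie within 1 kb, while the stretch could lie up to 2 kb away.

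**Figure D4:**
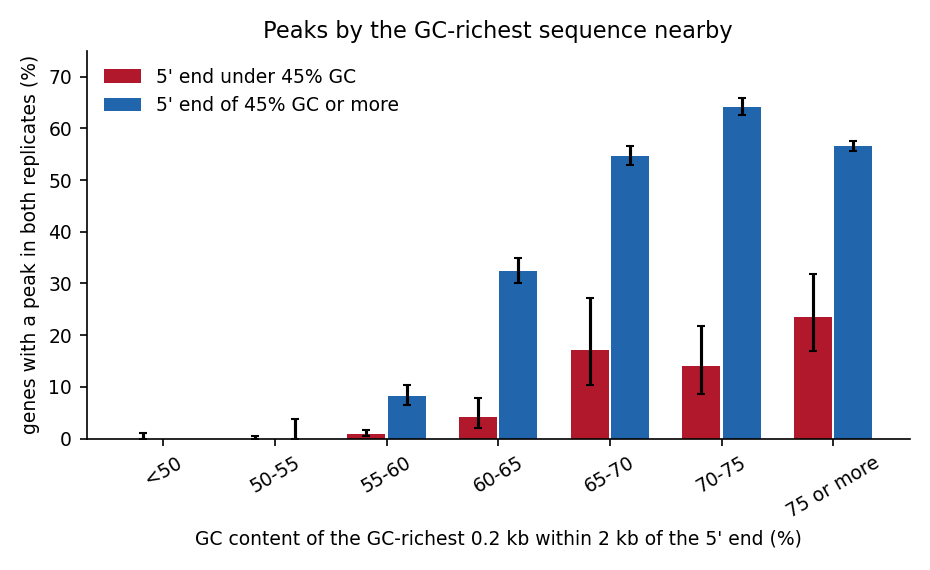
Share of genes with a peak in both replicates (vertical axis, %) by the GC content of the GC-richest 201 bp within 2 kb of the gene 5′ end (horizontal axis, %). Red bars are genes with a 5′ end under 45% GC, blue bars genes of 45% GC or more, and error bars are 95% Wilson intervals. In the 65 to 70% step the bars stand at 17.1% and 54.7%.

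The CpG ratio at the 5′ end also differed between the groups. Its window reached toward the peaks that chose the 73 genes. Between 400 and 500 bp downstream these had 3.18 CpG per 100 bp, against 0.9355 at GC-poor genes without a peak. The difference can thus follow in part from the choice of genes and is no separate result. The median CpG ratio was 0.403 at the 73 genes, 0.193 at GC-poor genes without a peak and 0.753 at genes of 45% GC or more with peaks. Since GC itself differed (medians of 42.9% and 39.96%), the comparison was repeated between 40 and 45% GC. The median ratios there were 0.417 over 60 genes and 0.218 over 1222, with median GC still at 43.4% and 42.5%. Under 40% GC the median ratios were 0.231 over 13 genes and 0.175 over 1228. The quartiles of the groups overlapped there (0.203 to 0.400 and 0.120 to 0.255). The highest ratio among the 73 was 0.951, at ZNF131, and a ratio of 0.6 or more was found at 20 of 73 genes (27.4%) and at 53 of 2450 (2.16%).

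Neighbouring starts were more frequent than at GC-poor genes without a peak and about as frequent as at all genes. Another gene started on the opposite strand within 1 kb at 20 of 73 genes (27.4%, 18.5 to 38.6), against 3.18% of GC-poor genes without a peak (2.56 to 3.96), 37.4% of genes of 45% GC or more with peaks and 26.6% of all protein-coding genes. The difference of 24.2 percentage points from GC-poor genes without a peak was 8.04 when the rule was applied at the canonical start. Between 40 and 45% GC the shares were 26.7% and 4.58%. At 11 of the 73 genes (15.1%, against 13.4% of all genes) a protein-coding gene started within that distance, for example FANCM (a Fanconi anemia helicase) 611 bp from FKBP3, MRPS18B (a mitochondrial ribosomal protein) 772 bp from PPP1R10 and PIGL 994 bp from NCOR1. These examples were picked after their values were seen. A start of another gene was nearer to both summits than any start of the gene itself at 23 of 73 genes. Counted per replicate, the share was 32.88% in replicate 1 (23.19 to 44.27) and 38.36% in replicate 2 (28.05 to 49.83). At genes of 45% GC or more with peaks it was 27.03% and 26.9%, so a nearer start of another gene was not peculiar to the 73 genes. LANCL1 and CPS1, the gene for the first enzyme of the urea cycle, start 30 bp apart on opposite strands and share 1 peak in each replicate, so the 73 genes rest on 72 distinct peaks in each list.

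The strength of the peaks was close to that at GC-rich genes. The median fold at the 73 genes was 5.85 in replicate 1 and 4.82 in replicate 2, against 6.15 and 5.21 at genes of 45% GC or more with peaks. The mean difference was -0.343 ± 0.0566 (SD, n = 2), while single genes spanned 2.40 to 23.05 in replicate 1, and 2.31 to 19.3 in replicate 2. The sign was not stable, since the difference was 1.22 for genes under 40% GC and 0.569 with the 10000 peaks of highest −log10 p per list. Fragments recovered at the summit had a median of 50 in replicate 1 and 26 in replicate 2, over control levels of 7 and 4.46. At genes of 45% GC or more with peaks the median fragments were 60 and 30, over control levels of 8 and 4.87. Within the full lists, the peaks at the 73 genes had a median percentile of fold of 84.3 in replicate 1 and 65.7 in replicate 2. Genes of 45% GC or more with peaks had 86.7 and 73.6. Of the 73 genes, 19 were in the top 10% of both lists (26.0%, against 26.3% of genes of 45% GC or more with peaks). The 53 genes with a peak in replicate 1 only had a median fold of 3.89, and the 9 in replicate 2 only had 4.12. These groups were defined by lacking a peak in the other list, so their lower fold follows in part from that choice. Fold ranked the 73 genes similarly in both replicates (Spearman's rho 0.806 over 73 genes, which share the libraries, so no p is given).

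The 12 genes with the strongest peaks are described one by one. MFSD11, a member of the major facilitator family of transporters, had a fold of 23.05 with 174 fragments in replicate 1 and 19.3 with 83 fragments in replicate 2. Both summits lay 1596 bp downstream of its 5′ end and 40 bp from another start of the gene. TMEM191C, a membrane protein gene with near-identical copies on chromosome 22, had a fold of 17.6 in replicate 1 and 12.8 in replicate 2, with summits 1905 and 1873 bp downstream. KDM3A followed with 15.4 and 14.3.
These 3 genes were the only ones above a fold of 12 in both replicates.

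ENSG00000286224, a model with 1 transcript, reached 13.5 in replicate 1 and 9.39 in replicate 2. Its summits lay 1742 and 1995 bp upstream, nearer to a start of another gene. ST7L had 11.5 and 8.98. At DDX5, which unwinds RNA and acts in splicing and transcription, the folds were 14.6 and 8.07, and the summits lay 4 and 7 bp from another annotated start of DDX5, 1696 and 1693 bp downstream.
RPRD2, which binds the C-terminal domain of RNA polymerase II, had folds of 9.34 and 9.39, and the summit was at 790 bp downstream in both replicates. NCOR1, a corepressor that recruits histone deacetylase, had 8.57 and 10.4, and it was the GC-poorest of all at 32.3%. Its summits lay 41 and 162 bp from a start of another gene. At both genes, replicate 2 was no lower than replicate 1, unlike at the genes above.

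TSACC, a cochaperone gene, had 8.998 and 8.98, with more fragments in replicate 2 (108) than any other of the 73 genes. ENSG00000288710 had 9.23 and 8.13. NPIPB9 had 11.2 and 8.48, and NPIPB6 had 14.4 and 7.60. NPIPB6 and NPIPB9 are copies of the nuclear pore complex interacting protein family on chromosome 16, and the sequences 500 bp either side of their 5′ ends were identical. The peaks lay farther upstream, where identity was not measured, so how far their fragments can be assigned to 1 copy was not tested. It was not tested for TMEM191C either.

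**Figure D5:**
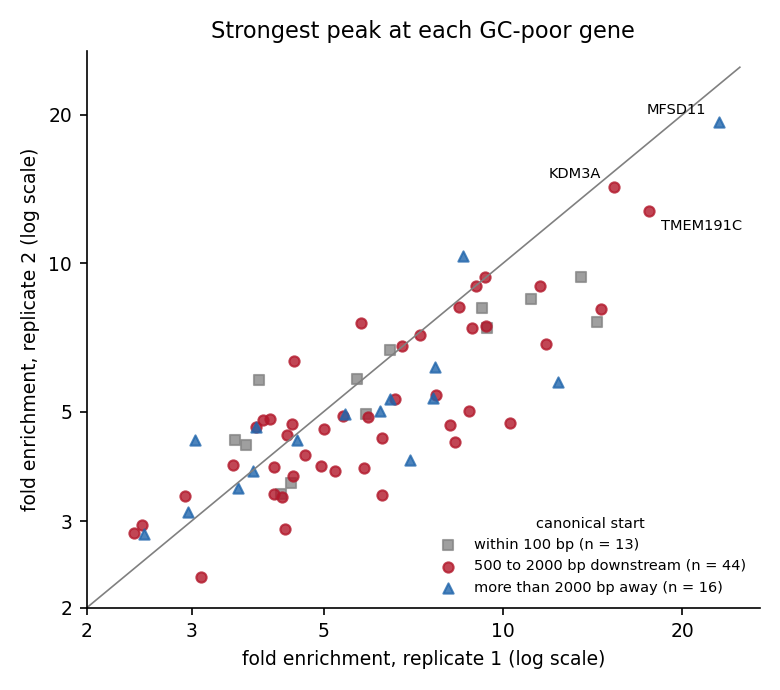
Fold enrichment of the strongest peak at each of the 73 genes in replicate 1 (horizontal axis, log scale) and replicate 2 (vertical axis, log scale), with the line of equality. Symbols show where the canonical transcript starts relative to the gene 5′ end. MFSD11, TMEM191C and KDM3A stand at the upper end with folds of 23.05, 17.6 and 15.4 in replicate 1, and the 3 symbols overlap over the remaining range.

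Of the 6 GC-poorest genes, NCOR1, DDX5 and ST7L were also among the strongest. JPT1, a microtubule-associated protein gene at 35.2% GC, had folds of 6.21 with 23 fragments and 5.02 with 12 fragments. HJV, at 36.6% GC, had folds of 7.69 and 6.15, and both summits lay 1068 bp upstream of its 5′ end. FKBP3, an FK506-binding protein gene at 37.3% GC, had a fold of 4.47 in replicate 1 and 6.34 in replicate 2, and its summits lay 794 and 903 bp upstream. The summits of JPT1 and HJV were both over 1 kb from any annotated start, unlike those of FKBP3, which lay 102 and 211 bp from a start of another gene.

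The members fell into kinds by their annotation. All 6 genes without a symbol were among the 13 whose canonical transcript starts at the 5′ end, together with NPIPB6, NPIPB9, H4C3, BAZ2B, MILR1, RFLNB and TTI2. At these 13 genes the median summit lay 690 bp upstream in replicate 1 and 688 bp in replicate 2, with median folds of 5.88 and 5.81. At the 44 genes with a canonical start 500 to 2000 bp downstream, GC around the canonical start had a median of 59.8% against 42.9% at the 5′ end, and it was 45% or more at 43 of them. The CpG ratio was 0.783 at the canonical start and 0.489 at the 5′ end. Median folds there were 5.81 and 4.73.

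Applying the rule at the canonical start left few genes. Of 2079 genes under 45% GC there, 21 had a peak in both replicates (1.01%), 14 of them among the 73, and all 21 had summit windows of 45% GC or more in each replicate. There were 731 genes that were GC-poor at the 5′ end but not at the canonical start. Of these, 243 had a peak of both replicates within 1 kb of the canonical start (33.2%), against 48.2% of all protein-coding genes. Of the 731, 57 were among the 73.

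Gene families that are usually silent in T cells made up 428 of the 2585 GC-poor genes and held no member. Olfactory receptors, the odour receptors of the nose, accounted for 341 GC-poor genes, and 0 had peaks in both replicates, which allows a share of up to 0.880%. Bitter taste receptors, keratin-associated proteins, type I interferons and beta defensins also had 0 members among 19, 25, 17 and 26 GC-poor genes. Outside these 5 families, 73 of 2157 GC-poor genes had peaks (3.38%, 2.70 to 4.23), close to the 2.82% over all GC-poor genes. The T-lineage list had 0 of 22 GC-poor genes with peaks and the list of other lineages 0 of 22, which allows up to 13.6% for each, so a difference between the lists was not detectable with so few GC-poor genes.

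Housekeeping lists had few GC-poor genes at all. Cytosolic ribosomal proteins had 1 of 82, the proteasome 2 of 39, the cell cycle and replication list 3 of 80, mitochondrial respiration 2 of 87 and splicing 0 of 58, with no member in any. The cleavage and polyadenylation list, to which NUDT21 belongs, had 1 GC-poor gene of 21 and no member. C-type and killer lectins had 0 members of 21, interleukins and their receptors 0 of 25, chemokines 0 of 9, GIMAP genes 0 of 2 and mitochondrial ribosomal proteins 0 of 1. These counts allow up to 14.3% for lectins, 12% for interleukins and 33.3% for chemokines. The remaining lists with 0 members in this paragraph had 3 GC-poor genes or fewer. The share over all GC-poor genes was 2.82%, so these zeros show no lack of peaks.
Zinc finger genes gave 1 member of 26 (Wilson interval 0.682 to 18.9%), which includes the 2.82% over all GC-poor genes. ZNF131 had a fold of 4.51 in replicate 1 and 4.39 in replicate 2, but these came from different peaks, with summits 175 bp upstream and 2062 bp downstream. ZFP64, ZNF577 and ZNF155, at 44.96%, 44.96% and 44.86% GC, were the GC-richest GC-poor genes of that list without a peak. Of 3 GC-poor replication-dependent histone genes H4C3 was the 1 member, and H3C6 had no peak at 40.2% GC and a CpG ratio of 0.694. Of 66 such histone genes with 45% GC or more, 55 had peaks (83.3%).

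The 3′ ends of the genes were also read, since NUDT21 acts on RNA at gene ends. A peak of both replicates within 1 kb of the gene 3′ end was found at 20 of 73 genes (27.4%, 18.5 to 38.6), against 2.90% of GC-poor genes without a peak, 46.5% of genes of 45% GC or more with peaks and 25.7% of all protein-coding genes. Among genes longer than 10 kb the shares were 24.6% (15.5 to 36.7), 3.58% and 38.0%. HDLBP, an RNA-binding protein gene of 89798 bp, and MPV17, a mitochondrial membrane protein gene of 16189 bp, were among the 15 such genes with peaks at both ends.

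Short sequence motifs were counted from 250 bp before to 50 bp after the start. GGGCGG (both strands), the GC box bound by SP factors, occurred at 10.96% of the 73 genes at the 5′ end and 61.6% at the canonical start. All protein-coding genes had 52.4% and 61.3%, and GC-poor genes without a peak had 3.47% and 19.2%. CCGGAAG (both strands), the core of ETS sites, occurred at 1.37% and 12.3% of the 73 genes, and at 11.9% and 14.1% of all genes. TGTA on the gene strand, the DNA form of UGUA, occurred at 68.5% of the 73 genes at the 5′ end and 28.8% at the canonical start, against 37.1% and 32.4% of all genes and 71.6% and 60.8% of GC-poor genes without a peak. TATAAA 40 to 20 bp before the 5′ end occurred at 1 of 73 genes (1.37%), 6.82% of GC-poor genes without a peak and 2.83% of all genes. CCAAT (both strands) occurred at 41.1% of the 73 genes at the 5′ end and 47.95% at the canonical start (30.5 to 52.6 and 36.9 to 59.2), against 41.6% and 39.96% of GC-poor genes without a peak and 35.9% and 36.01% of all genes. TGACGTCA (both strands) was found at 2.74% and 4.11% of the 73 genes, against 2.29% and 2.69% of all genes. AAGATGGC (both strands) was found at 1.37% of the 73 genes at the 5′ end and 10.96% at the canonical start (5.66 to 20.2), against 3.04% and 4.06% of all genes. A match describes letters only.

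The genes lay on 19 of the 23 chromosomes examined. Chromosome 2 held 12 of its 165 GC-poor genes, chromosome 1 held 11 of 289, chromosome 17 held 10 of 76 and chromosome 16 held 7 of 51. Over all protein-coding genes, peaks of both replicates were found at 555 of 1247, 1006 of 2061, 848 of 1186 and 599 of 857, in the same order. Across all chromosomes examined that share was 46.7%, so chromosomes 17 and 16 were also high for genes of any GC content. Chromosome 11, with 280 GC-poor genes, held 3.

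At the limits of the rule, CD70, a ligand of the tumour necrosis factor family, had 44.96% GC and SLMAP 44.76%, while RPGRIP1 at 45.05% and ZNF251 at 45.15% fell just outside. CRYM and CPS1 had their farther peak edge 985 and 953 bp from the 5′ end, and HYPK at 1014 bp (replicate 1) and ZNF217 at 1026 bp (replicate 2) fell just outside. The farther edge lay more than 500 bp away at 48 of the 73 genes, and another 55 GC-poor genes had it between 1 and 2 kb, so the count depended on the distance allowed.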

How the data were processed

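The measurements were CUT&Tag peaks of NUDT21 in J.gamma1 cells, 2 samples in 1 group. Per the study's methods and the submitters' processing notes, the authors trimmed reads with fastp, aligned them to hg38 with Bowtie2 2.2.5, removed duplicates and called peaks per replicate with MACS3 3.0.1. Each deposited list held fold enrichment at the summit (a ratio), −log10 p and −log10 q as the authors' caller gave them, the summit position, and a deposited score (whole-number form of the −log10 q) that was not used. The control that the caller used is not given in the sources used here.

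Fragments at the summit and the control level were solved from fold and −log10 p, with a pileup scale of 0.921 in replicate 1 and 1 in replicate 2. Nearly all peaks had a solution (99.98% and 99.997%). Total depth is unknown. The scripts were first run on made-up peaks with known fragments.

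Genes and canonical transcripts came from GENCODE 44 and sequence from hg38, read with pysam 0.24.0 and analysed in Python 3.11.15 with pandas 2.3.3. A peak counted when its edge lay within 1000 bp of the gene 5′ end, and the strongest had the highest fold. No column of other samples was used (0 such columns). Shares carry 95% Wilson intervals, and a count of 0 was given the limit of 3 counts. No test was possible between groups of samples, and genes are not replicates, so comparisons between genes are descriptions. Members and gene lists were chosen with earlier results of these data known. Named genes were the 12 members with the lowest sum of fold ranks, the 6 of lowest GC, 2 on each side of each limit, members and GC-richest peakless genes of each list with members, and 4 peakless genes of highest CpG ratio. Other genes, the GC-richest stretch nearby, gene ends, sequences inside peaks and the requirement that a peak cover the 5′ end were chosen after values were seen. Sequences were chosen in rank order, passing over windows with annotated UTR, and 11 of the 14 chosen are printed. The others and 1 gene's values are not reported here. The alternatives were other GC limits and windows, other distances, the summit in place of the edge, stricter peaks, the canonical start, leaving out genes with a near neighbour, 40 to 45% GC only, and each replicate alone.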

Additional observations from a re-analysis of the deposited data

Results flagged for a closer look

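Peaks also lay on alternate sequences of chromosome 6 in the assembly, which no comparison above used. Replicate 1 had 771 such peaks and replicate 2 had 172. They are given because they lie outside the main measurement. No control sample was analysed, so whether these numbers are unusual was not tested. Of the 73 genes, 4 lie on chromosome 6. PPP1R10 (a phosphatase regulatory subunit) is 1 of them and is named after its values were seen. It had a fold of 8.15 in replicate 1 and 4.70 in replicate 2. Whether fragments were divided between the chromosome and its alternate sequences was not tested.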

How the results depend on the processing

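The share of genes with a summit in sequence of 45% GC or more was 100% under all 14 alternatives tried on it. Here the mean over the replicates used was set against 45%, also where the GC limit was changed. Since 99.8% and 99.6% of all summits had such windows, this share was largely fixed in advance. The number of GC-poor genes with a peak in both replicates, 73 as reported, was 13 with a limit of 40% GC, 383 with 50%, 123 with GC over 250 bp either side, 25 with peaks within 500 bp, 157 within 3000 bp, 37 with the summit within 1 kb, 22 with the 10000 strongest peaks per list and 21 at the canonical start. It was 1 when the peak had to cover the 5′ end, chosen after the data were seen, and 82 to 126 with 1 replicate left out.

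The difference in median fold from genes of 45% GC or more (-0.343) turned to 1.22 under 40% GC and 0.569 with the 10000 strongest peaks. It was -0.196 under 50% GC, -0.199 with 250 bp windows, -0.401 with 1000 bp windows, -0.467 within 3000 bp, -0.546 by summit, -0.578 at −log10 q of 5 or more, -0.117 at the canonical start, -0.0532 without genes near another start, -0.610 between 40 and 45% GC, and -0.699 to -0.422 with 1 replicate left out.

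The difference in median CpG ratio (0.210) kept its sign under the 14 alternatives tried. It was 0.0556 under 40% GC, 0.300 under 50%, 0.260 and 0.519 with 250 and 1000 bp windows, 0.360 and 0.133 within 500 and 3000 bp, 0.310 by summit, 0.215 at −log10 q of 5 or more, 0.221 with the strongest peaks, 0.213 at the canonical start, 0.208 without near neighbours, 0.199 between 40 and 45% GC, and 0.1885 to 0.1901 with 1 replicate left out.

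The difference in the share with an opposite-strand start (24.2 percentage points) was 12.7 within 3000 bp, 9.85 with the strongest peaks and 8.04 at the canonical start. That in the share with the canonical start within 100 bp (-43.8 points) was -57.5 under 40% GC, -29.6 under 50% and turned to 10.2 with 1000 bp windows. The causes were not tested. The opposite-strand share was not run without near neighbours, nor the canonical share at the canonical start, since each is removed by construction. The difference between the lineage lists (0) ranged from -5.26 to 13.6 points. No paired analysis was possible because both replicates belong to 1 group. Total read depth is unknown.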
